A study of Mus musculus with 12 samples.

Results

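The mouse HOX cluster genes are the genes named Hoxa, Hoxb, Hoxc or Hoxd followed by a number, without the antisense genes that carry an os ending. The rule was applied to gene names alone, without regard to any measured value. It found 40 identifiers with 39 names among the 54232 genes of the count table, since Hoxd4 is listed under 2 identifiers whose counts differ by at most 2 in any tumor and which were counted once. Of the 39 genes, 31 had enough counts for the test and 8 did not, and both sets are described.

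HOX genes encode homeodomain transcription factors that sit in 4 clusters on different chromosomes. Along each cluster, low-numbered (3′) genes are expressed toward the head and high-numbered (5′) genes toward the tail and the ends of the limbs. Fibroblasts, dermis and vessels of the adult keep much of this pattern, so the set of HOX genes that a tissue expresses reflects where in the body its cells come from. HOX proteins bind DNA together with the TALE homeodomain proteins PBX and MEIS. Polycomb and trithorax complexes hold the clusters off or on.

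The tumors were subcutaneous flank xenografts of SVR cells, a mouse endothelial line of pancreatic islet origin transformed with H-Ras that forms angiosarcomas and whose labelled strain is C57BL/6, in athymic nude mice 8 to 12 weeks old. Mice received daily oral gavage of vehicle (control), 1 mg/kg trametinib, an inhibitor of the MAPK kinase MEK, 3 mg/kg cediranib, an inhibitor of the VEGF receptors, or both at those doses (combination), with 3 tumors per group. The labels give ulceration or a size limit as the end of treatment, while the study ran a second experiment with a common harvest time, and whether the 4 groups were treated equally long was not stated. RNA of the whole tumor was enriched with exome probes, and 9478865 to 11666094 counts per tumor fell on genes. All tumors came from the same cell line, which bounds how far they stand for angiosarcoma in general. Line and host are both mouse, so SVR cells and host skin, muscle or stroma cannot be told apart by alignment, and fewer cells of a type cannot be told apart from less RNA per cell.

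The libraries differed in the tissue that came with the tumor. Summed CPM (counts scaled to library size) of 10 skeletal muscle markers were 17293 in control tumor 2 and 24309 in trametinib tumor 2, against 6.67 to 2033 in the other 10 tumors. Epidermal markers (23 genes) summed to 387 to 578 CPM in the combination tumors, 324, 86.1 and 292 CPM in the cediranib tumors, and 46.7 to 110 CPM in the control and trametinib tumors. For the labelled endothelial line, the endothelial genes Tie1 (14.8 to 190 CPM) and Cdh5 (6.90 to 120 CPM) were present in every tumor, whereas Pecam1 reached at most 5.01 CPM and Emcn at most 0.303 CPM. The sum of 10 endothelial markers was 208 to 431 CPM in control tumors, 122 to 327 with cediranib, 51.2 to 112 in trametinib tumors and 33.7 to 85.1 in combination tumors. Results that depend on the muscle-rich tumors or on the epidermal level are given with and without them.

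The members share a homeobox, and the stretch of it that encodes the DNA-contacting recognition helix shows how close they are. The genes below are 8 that passed the test in at least 1 comparison, with Hoxc13, the HOX gene of the hair shaft, for contrast. The 33 coding bases (GENCODE M21, GRCm38) are printed 5′ to 3′ on the coding strand, and capitals mark the bases that differ from Hoxd9. In Hoxd9 they lie in exon 2 of 2 at chr2:74699356-74699388, plus strand.
Hoxd9: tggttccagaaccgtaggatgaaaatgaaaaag
Hoxa9: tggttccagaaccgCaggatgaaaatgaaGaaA
Hoxd8: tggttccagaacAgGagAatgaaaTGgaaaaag
Hoxa10: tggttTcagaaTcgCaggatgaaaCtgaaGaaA
Hoxd10: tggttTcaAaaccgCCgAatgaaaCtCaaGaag
Hoxa11: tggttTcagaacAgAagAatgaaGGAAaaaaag
Hoxb4: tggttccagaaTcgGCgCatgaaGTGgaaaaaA
Hoxa3: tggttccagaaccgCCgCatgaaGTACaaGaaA
Hoxc13: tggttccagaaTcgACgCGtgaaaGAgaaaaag

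Within this stretch Hoxa9 differed from Hoxd9 at 3 of 33 bases, Hoxd8 at 5, Hoxa10 at 6, Hoxc13 at 7, Hoxd10, Hoxa11 and Hoxb4 at 8 each and Hoxa3 at 9. Compared among HOX transcripts only, stretches of 50 bases, the read length, were nearly private to each gene. The most shared were 339 between Hoxd3 and Hoxd4 and 119 between Hoxc5 and Hoxc10, which also share exons, so the values of those 4 genes are less certain. How the counting treated strand was not given in the sources used here. Among the exonic bases of Hoxb3, 52.9% lay opposite Hoxb3os, and of those of Hoxa11, 35.0% lay opposite Hoxa11os. Counts listed for Hoxa11os were 70.7% to 82.1% of those for Hoxa11 in every tumor, and counts for Hoxb3os 70.5% to 91.8% of those for Hoxb3, so sense and antisense reads of these 2 genes cannot be told apart. Hoxa3 lies opposite Hoxaas3 and other antisense genes over 25.4% of its exonic bases. Hoxaas3 itself had only 0 to 5 counts per tumor, and counts of the other antisense genes opposite Hoxa3 were not compared.

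In the control tumors the highest HOX levels lay at the 5′ side of HOXA and HOXD and in the middle of HOXB. Levels are compared between genes as CPM per kb of exon. With exome capture a count depends on probes as well as transcripts, so the order of genes and the shares of clusters are approximate. Hoxd10, active in hindlimb and lower trunk, stood at 24.5 ± 3.11 CPM per kb (SD, n = 3). Hoxa11, a gene of the middle limb segment and the uterus, followed with 22.3 ± 6.23, and their spreads overlap. A plateau of genes came next that did not differ beyond their spread, with Hoxb7 at 11.2 ± 1.37, Hoxd8 at 10.6 ± 2.22, Hoxb4 at 10.4 ± 0.328, Hoxa10 at 10.2 ± 2.21, Hoxb6 at 10.0 ± 2.06, Hoxd9 at 9.92 ± 3.08 and Hoxa6 at 9.52 ± 2.14 CPM per kb.

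At the other end were the HOXC genes and the outermost genes of HOXB and HOXD. Hoxc6, the HOXC gene with the highest mean CPM over all 12 tumors, stood at 1.10 ± 0.678 CPM per kb in control tumors. HOXC as a whole made up 2.95% ± 1.43 of the summed HOX level per kb in controls, against 40.1% ± 2.20 for HOXA, 24.6% ± 1.00 for HOXB and 32.4% ± 1.79 for HOXD. The 8 genes too low to test were Hoxb1, Hoxb13, Hoxc11, Hoxc12, Hoxc13, Hoxd1, Hoxd12 and Hoxd13. Hoxd13, the outermost HOXD gene, had 1 count in all 12 tumors together. Going inward along the cluster, Hoxd12 had 7, Hoxd11 779 and Hoxd10 7914. In a library with no counts, a level of up to 0.251 to 0.349 CPM (3 counts, counting error only) remains possible.

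**Figure D1:**
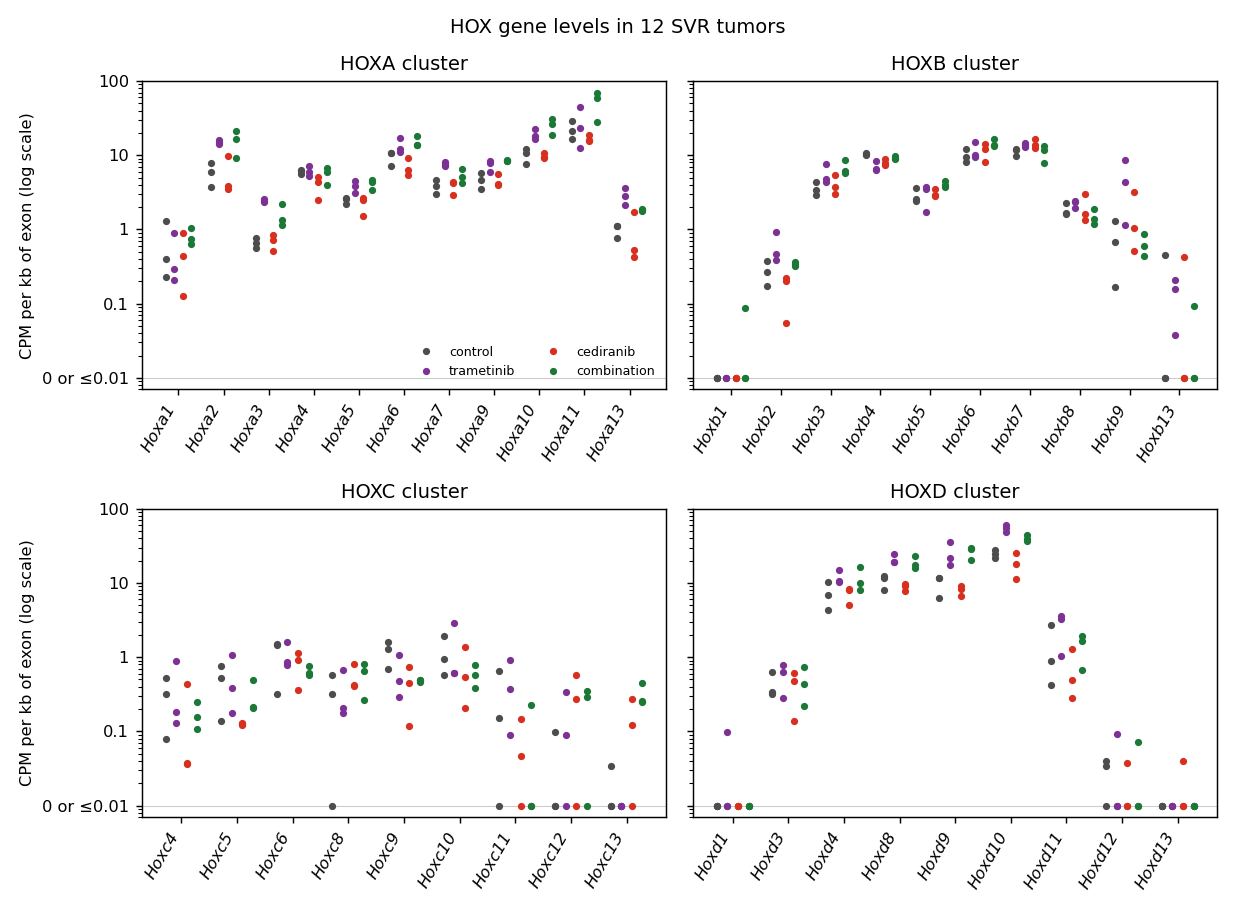
HOX gene levels in CPM per kb of exon (log scale) by cluster, with genes ordered by number and each point a tumor, colored by treatment; values of 0 are drawn at the bottom line. The mean over the 12 tumors is highest at Hoxa11 in HOXA (29.3) and at Hoxd10 in HOXD (34.4) and is 1.51 at Hoxd11, and HOXC genes are low throughout.

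Trametinib-treated tumors held more HOX transcript than tumors without it, whether or not cediranib was given. The summed level of all 39 genes was 414, 396 and 351 CPM in the control tumors and 319, 333 and 383 CPM in the cediranib tumors. It was 723, 604 and 604 CPM in the trametinib tumors and 691, 696 and 642 CPM in the combination tumors. Every tumor that received trametinib thus lay above every tumor that did not, and the ratio of means to control was 1.66 for trametinib, 1.75 for the combination and 0.892 for cediranib. These sums are given as a description, without a test.

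The clusters did not share this evenly. Summed HOXD level was 119 ± 8.62 CPM in controls, 253 ± 33.2 with trametinib, 95.2 ± 17.6 with cediranib and 215 ± 36.1 with the combination (SD, n = 3). HOXA level was 162 ± 22.0, 265 ± 56.1, 141 ± 9.40 and 337 ± 50.5 CPM in the same order. Of this, Hoxa11, which shares counts with its antisense gene, made up 50.9 ± 14.2, 60.9 ± 37.0, 38.3 ± 3.70 and 118 ± 48.5 CPM. For both clusters the 2 trametinib-containing groups lay wholly above control. HOXB sums overlapped between all groups, with means of 94.8, 114, 101 and 116 CPM, and HOXC sums overlapped control in all, with means of 11.4, 11.5, 7.44 and 7.98 CPM. Genes of groups 9 to 13 made up 46.3% ± 4.29 of the summed HOX level per kb in controls, 53.2% ± 0.756 with trametinib, 42.1% ± 3.81 with cediranib and 55.0% ± 5.31 with the combination.

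**Figure D2:**
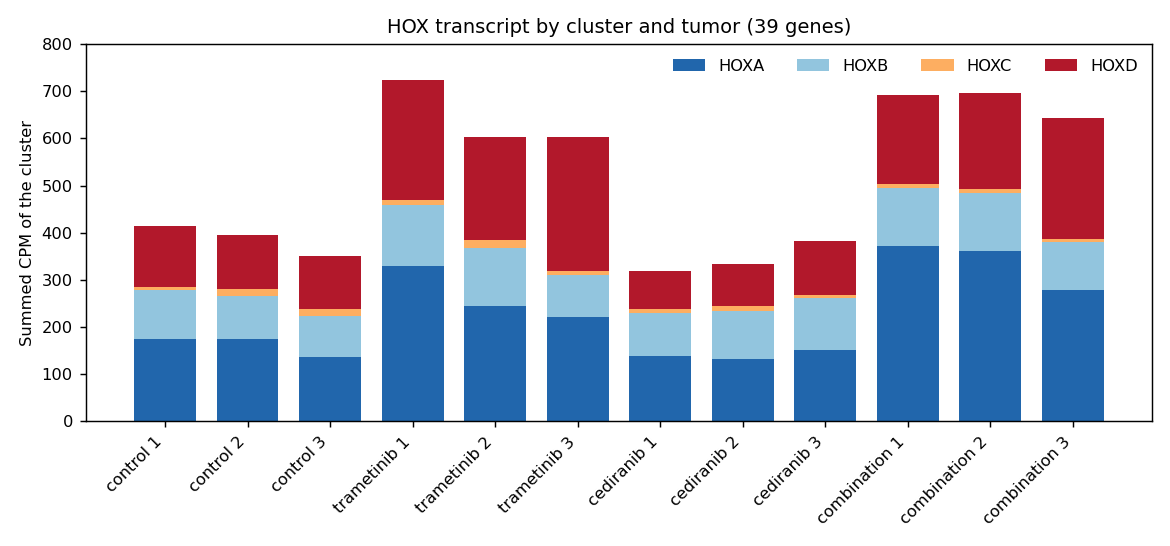
Summed CPM of the HOXA, HOXB, HOXC and HOXD genes in each of the 12 tumors, stacked from 0. The 6 tumors given trametinib reach 604 to 723 CPM and the 6 others 319 to 414 CPM, with the difference in HOXA and HOXD.

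The effect of MEK inhibition alone was read from trametinib against control. With trametinib, 6 HOX genes rose and 1 fell at an edgeR FDR of 0.05 with no minimum fold, out of 31 tested. Of all 12897 genes tested, 2.64% rose and 3.47% fell by this rule. The genes that rose were Hoxa3, Hoxa7, Hoxa10, Hoxd8, Hoxd9 and Hoxd10, and the gene that fell was Hoxb4. By the stricter rule, which also asks for a log2 fold change of 1.5 or more in size and defines a called gene below, 1 HOX gene was called (Hoxa3), against 2.40% of all genes. A log2 fold change above 0 was found for 27 of 31 HOX genes and 50.6% of all genes. The median log2 fold change was 0.50 over the 31 HOX genes and 0.01 over all genes, and 0.69, 0.28, 0.21 and 0.99 for HOXA, HOXB, HOXC and HOXD.

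Hoxa3, a gene of the neck and pharyngeal arches that is also known from endothelial migration in wounds, was at 4.003, 3.34 and 4.65 CPM in the control tumors. It was at 13.9, 15.2 and 14.7 CPM with trametinib, at 5.10, 3.12 and 4.31 CPM with cediranib and at 7.98, 6.90 and 13.2 CPM with the combination. All 6 trametinib-containing tumors lay above all others. The log2 fold change for trametinib was 1.86 ± 0.27 (SE, n = 3 per group, edgeR FDR 0.00216), which is 3.64-fold.

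Hoxd9, Hoxd10 and Hoxd8 sit next to each other in the HOXD cluster and act in trunk and limb. Hoxd9 was at 24.7, 13.6 and 25.3 CPM in the control tumors, 46.3, 37.4 and 77.0 with trametinib, 14.3, 19.2 and 17.5 with cediranib and 42.9, 62.0 and 63.9 with the combination. Hoxd10 was at 44.0, 50.4 and 39.1 CPM in controls, 101, 87.6 and 110 with trametinib, 20.5, 32.6 and 45.4 with cediranib and 67.3, 70.1 and 80.5 with the combination. For both genes the trametinib and combination values lay above all control and cediranib values. Hoxd10 is also known as a gene that restrains angiogenic behavior of endothelial cells. With trametinib the log2 fold change was 1.34 ± 0.29 for Hoxd9 (edgeR FDR 0.0193), 1.16 ± 0.23 for Hoxd10 (0.0107) and 0.99 ± 0.19 for Hoxd8 (0.00992). Hoxd11, the next gene outward, gave 1.79, 11.3 and 3.74 CPM in controls and 13.8, 15.01 and 4.35 with trametinib, so its groups overlapped.

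Hoxa10, a gene of the lower trunk, limb and blood progenitors, was at 39.1, 35.5 and 25.2 CPM in controls, 74.4, 60.2 and 54.9 with trametinib, 35.0, 31.1 and 29.8 with cediranib and 87.0, 100 and 62.2 with the combination. Its 2 trametinib-containing groups stood wholly above the others. Its log2 fold change with trametinib was 0.93 ± 0.20 (edgeR FDR 0.0190), and that of Hoxa7, a trunk gene, was 1.00 ± 0.22 (0.0206). Hoxa9, known from leukemia and from endothelial progenitors, had 0.69 ± 0.19 and missed the threshold (0.0590).

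Hoxb4, known for the expansion of blood stem cells, went the other way. It was at 27.7, 26.5 and 26.1 CPM in controls and 16.2, 21.4 and 16.7 with trametinib, with 18.8, 22.6 and 20.0 for cediranib and 22.5, 24.9 and 23.2 for the combination. All control values lay above all others. With trametinib the log2 fold change was -0.57 ± 0.14 (edgeR FDR 0.0386), and the gene passed under 6 of 15 alternatives. Hoxb6, the HOXB gene with the highest mean CPM, was at 24.1, 18.8 and 16.2 CPM in controls, 29.3, 19.9 and 18.3 with trametinib, 24.0, 15.7 and 28.0 with cediranib and 27.0, 32.4 and 25.9 with the combination. Its values overlapped between control and trametinib (log2 fold change 0.19). Hoxc6 was at 0.766, 3.55 and 3.64 CPM in controls, 1.91, 3.84 and 2.09 with trametinib, 2.20, 2.74 and 0.861 with cediranib and 1.82, 1.45 and 1.39 with the combination, and no order between groups can be read from it.

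**Figure D3:**
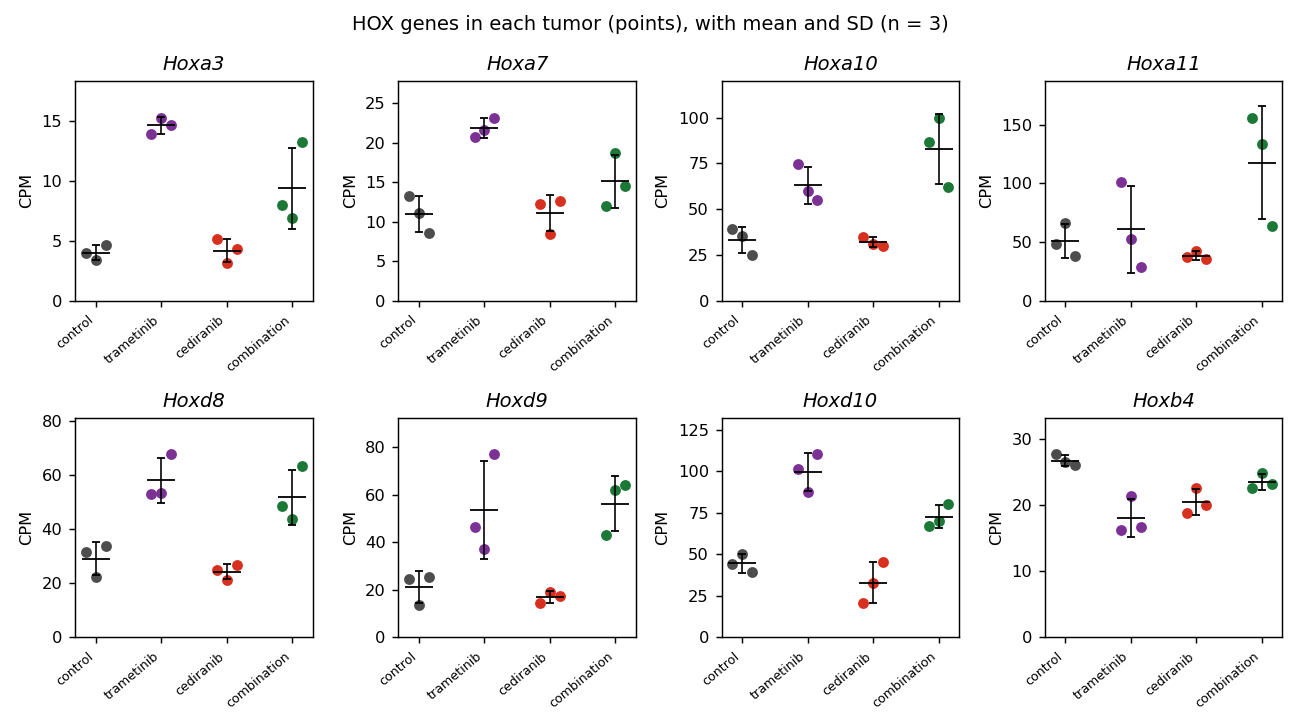
CPM of 8 HOX genes by tumor (points) with mean and SD (n = 3 per group). Hoxa3, Hoxa10, Hoxd8, Hoxd9 and Hoxd10 lie higher in every tumor given trametinib than in any other tumor, while Hoxb4 is highest in the controls.

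Between trametinib and control, 13 of the 31 HOX genes lay higher without overlap and 1 lay lower (Hoxb4), against 12.9% of all genes in each direction. Leaving out the 2 muscle-rich tumors left 3 genes past the FDR threshold (Hoxa3, Hoxd9 and Hoxd10) in place of 7, while the median log2 fold change over the HOX genes was 0.59 with 10 tumors in the fit. Without control tumor 2 or control tumor 3 alone, 4 remained past it. With a score of the epidermal markers as a covariate in the fit, Hoxd9 and Hoxb4 no longer passed.

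Cediranib against control, the effect of VEGF receptor inhibition alone, gave 0 HOX genes at an edgeR FDR of 0.05, as for all genes (0.00%). The edgeR likelihood ratio test and DESeq2 also called 0 HOX genes. At an unadjusted p of 0.05 there were 4, namely Hoxa4, Hoxb4, Hoxc5 and Hoxc9, all lower, where 4.32% of all genes passed that mark in either direction. The median log2 fold change was -0.17 over HOX genes. Approximate 95% intervals for the genes that rose with trametinib ran from -0.46 to 0.34 for Hoxa10, from -0.90 to 0.26 for Hoxd9 and from -0.48 to 0.60 for Hoxa3. Changes within those bounds could not be seen with 3 tumors per group.

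Combination against control asked what both drugs did together. Of 31 HOX genes, 6 rose and 0 fell at an edgeR FDR of 0.05, where 4.85% of all genes rose and 5.13% fell. They were Hoxa2, a gene of the hindbrain and neural crest, and Hoxa3, Hoxa9, Hoxa10, Hoxd8 and Hoxd9. By the rule with a minimum fold 0 were called, against 3.61% of all genes, and 12 passed an unadjusted p of 0.05, as did 27.2% of all genes. Log2 fold changes were above 0 for 21 HOX genes and 50.1% of all genes. Hoxd9 had the log2 fold change of 1.41 ± 0.30 (edgeR FDR 0.0131), Hoxa2 1.41 ± 0.41 (0.0485), Hoxa10 1.32 ± 0.20 (0.00391), Hoxa3 1.22 ± 0.27 (0.0169), Hoxa9 0.89 ± 0.20 (0.0163) and Hoxd8 0.83 ± 0.19 (0.0204).

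The number of genes past the threshold depended on the covariates and tumors in the fit. For combination against control, Hoxa2 passed under 7 of 15 alternatives and the other genes above under 11 to 14. The combination tumors were the ones with the most epidermal transcript, and once the epidermal score entered the fit as a covariate 0 HOX genes passed in this comparison, with an edgeR FDR of 0.192 for Hoxa10 and 0.243 for Hoxd9. In that fit the median log2 fold change over the HOX genes was 0.47, against 0.50 without the score, that of Hoxd9 was 1.502, that of Hoxa10 1.07 and that of Hoxa9 0.47. Without the 2 muscle-rich tumors 2 passed (Hoxa10 and Hoxd9), without control tumor 2 alone 2 passed, and without combination tumor 3 alone 3 passed. The median without the 2 muscle-rich tumors was 0.62. The part of the epidermal and muscle transcript in the result was not tested further.

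Combination against cediranib, which differ by trametinib, gave 9 HOX genes that rose and 0 that fell at an edgeR FDR of 0.05, against 3.90% and 3.78% of all genes. They were Hoxa3, Hoxa5, Hoxa6, Hoxa9, Hoxa10, Hoxa11, Hoxd8, Hoxd9 and Hoxd10. With the minimum fold 2 were called, against 2.45% of all genes. Hoxd9 was 1.73 ± 0.30 higher on the log2 scale (edgeR FDR 0.00665) and Hoxa11 1.62 ± 0.42 higher (0.0371). Hoxa11 stood at 156, 134 and 63.4 CPM in the combination tumors and 37.2, 42.4 and 35.2 in the cediranib tumors, which did not overlap. It stood at 48.2, 66.3 and 38.2 CPM in control and 101, 53.0 and 28.5 in trametinib tumors, which did. Hoxa11 passed the FDR threshold under 8 of 15 alternatives and not without combination tumor 1 (edgeR FDR 0.110). Hoxa5 passed under 4 of 15, and the other genes under 10 to 15. With the epidermal score in the model 5 genes passed, and 5 passed without cediranib tumor 1 or cediranib tumor 2. Without the 2 muscle-rich tumors Hoxa5 and Hoxa11 no longer passed.

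Combination against trametinib gave 0 HOX genes at an edgeR FDR of 0.05, where 0.969% of all genes passed in either direction, and 5 at an unadjusted p of 0.05, where 17.9% of all genes did. The likelihood ratio test and DESeq2 each gave 1. The smallest FDR among HOX genes was that of Hoxb9, a gene of the thorax (0.109), at 11.3, 22.1 and 2.93 CPM with trametinib and 2.22, 1.54 and 1.11 with the combination. Its log2 fold change was -2.88 ± 0.84. The interaction of both drugs, which asks whether the change with trametinib differs with cediranib present, passed for 0 HOX genes and for 0.00% of all genes, with 4 HOX genes and 7.05% of all genes at an unadjusted p of 0.05 and a smallest HOX FDR of 0.509 (Hoxb4). For Hoxd9 the interaction was 0.39 with an approximate 95% interval of -0.42 to 1.196, and for Hoxa3 it was -0.70 with an interval of -1.44 to 0.04. Since the interval is wide in each case, neither shows that cediranib left the trametinib change as it was.

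**Figure D4:**
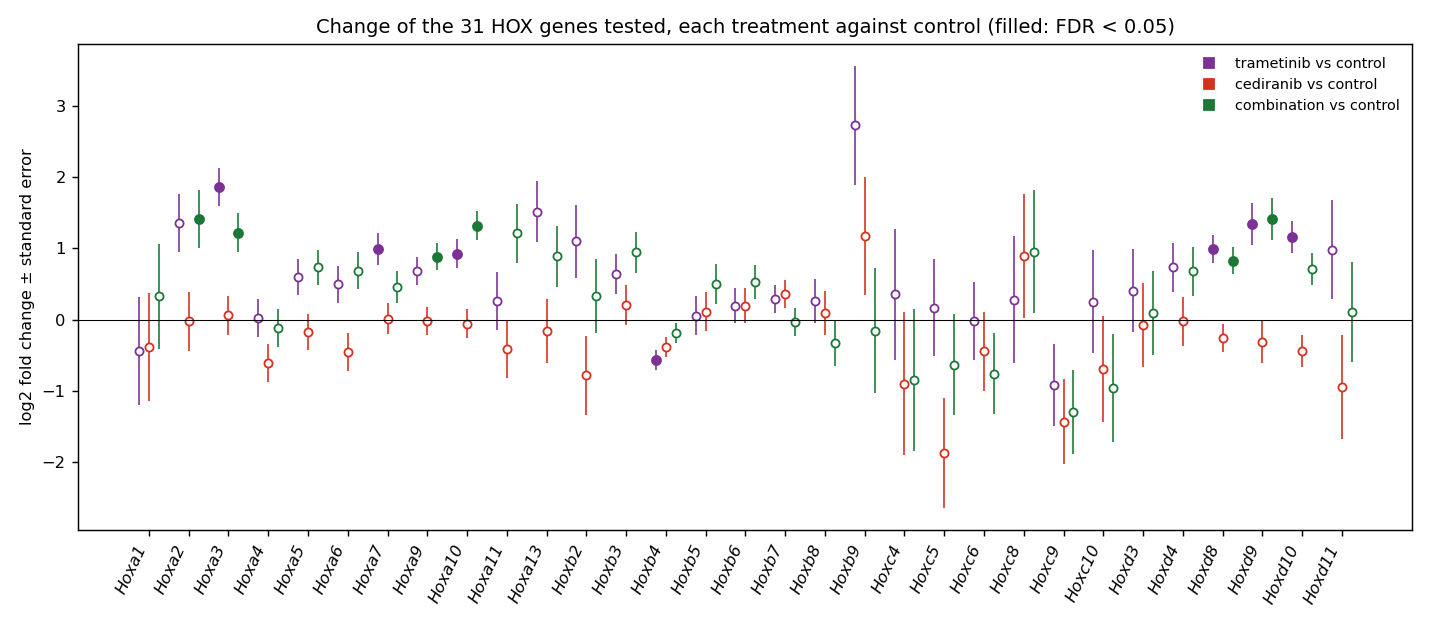
Log2 fold change (± standard error) of the 31 HOX genes tested, for trametinib, cediranib and combination, each against the same 3 control tumors; filled points passed an edgeR FDR of 0.05 and open points did not. With trametinib 7 genes pass and with the combination 6, all of them in HOXA or HOXD apart from Hoxb4, and with cediranib 0 pass.

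Because both trametinib-containing groups stood above the others, the average effect of trametinib over the 6 tumors with it and the 6 without it was taken from the same fit, a contrast chosen after the values were seen. It gave 13 HOX genes higher and 0 lower at an edgeR FDR of 0.05, against 8.20% and 8.54% of all genes. The 13 were Hoxa2, Hoxa3, Hoxa5, Hoxa6, Hoxa7, Hoxa9, Hoxa10, Hoxa11, Hoxa13, Hoxb3, Hoxd8, Hoxd9 and Hoxd10, of which Hoxb3 and Hoxa11 share counts with antisense genes and are less certain. With the minimum fold 2 were called (Hoxa3 and Hoxd9), against 3.30% of all genes. Hoxd9 was 1.53 ± 0.21 higher on the log2 scale (edgeR FDR 0.000516), Hoxa3 1.51 ± 0.19 (0.000319), Hoxa2 1.39 ± 0.29 (0.00647), Hoxa13 1.28 ± 0.31 (0.0136), Hoxd10 1.15 ± 0.16 (0.000598), Hoxa10 1.15 ± 0.14 (0.000293) and Hoxd8 1.04 ± 0.14 (0.000382). In 9 genes all 6 tumors with trametinib exceeded all 6 without it, against 3.64% of all genes. The median log2 fold change was 0.70 over the HOX genes and 0.00 over all genes.

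Most of these genes did not rest on a single tumor. Hoxa2, Hoxa3, Hoxa6, Hoxa7, Hoxa9, Hoxa10, Hoxd8, Hoxd9 and Hoxd10 stayed past the FDR threshold under all 20 alternatives, with the epidermal score in the model, without the muscle-rich tumors and without each tumor in turn among them. Hoxa11 passed under 10 of 20 and Hoxb3 under 13. With the epidermal score in the model 15 HOX genes passed, and without the muscle-rich tumors 9 did.

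Fibroblasts, whose positional HOX pattern is well known, varied between the tumors too. Of 8 fibroblast markers tested, 5 (Col3a1, Dpt, Pdgfra, Dcn and Fbln1) were higher at an edgeR FDR of 0.05 in tumors with trametinib than in tumors without, against 8.20% of all genes. The summed level of the 10 listed fibroblast markers was 2224, 7461 and 21146 CPM in control tumors and 16824, 37111 and 8855 CPM in trametinib tumors. It was 3432, 6797 and 1751 CPM with cediranib and 5933, 3132 and 5258 CPM with the combination. The sums overlapped between tumors with and without trametinib, and Col1a1 alone made up 31105 of the 37111 CPM in trametinib tumor 2. Pdgfra, which marks fibroblasts, was at 15.6, 11.66 and 16.9 CPM in controls and 30.9, 39.9 and 29.9 with trametinib, 7.99, 17.7 and 10.9 with cediranib and 20.2, 28.9 and 24.5 with the combination. Fbln1, a matrix protein, was at 195, 122 and 149 CPM in controls, 412, 247 and 761 with trametinib, 174, 82.9 and 171 with cediranib and 608, 492 and 304 with the combination. For both genes, as for the summed HOX level, all 6 tumors with trametinib lay above all 6 without. Col1a2 of the same list did not follow this, at 371, 1187 and 3717 CPM in controls and 406, 230 and 319 CPM with the combination. The part of fibroblast transcript in the HOX result was not tested. Of 8 endothelial markers 6 were lower and 0 higher in tumors with trametinib, against 8.54% and 8.20% of all genes, of 9 macrophage markers 1 was lower, and of the 2 adipocyte markers 0 passed.

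Several low HOX genes differed between tumors of the same group. Hoxd11 was highest in the muscle-rich tumors control 2 (11.3 CPM) and trametinib 2 (15.01 CPM) and in trametinib tumor 1 (13.8 CPM), which had 231 CPM of muscle transcript. Hoxc10, a hindlimb gene, was highest in the 2 muscle-rich tumors, at 3.65 and 5.59 CPM against 0.400 to 2.58 CPM in the others. Hoxc5 was also highest there, at 2.33 and 3.26 CPM. Hoxb9 reached 22.1 CPM in trametinib tumor 2 but also 11.3 CPM in trametinib tumor 1 and 8.23 CPM in cediranib tumor 2, which had 12.7 CPM of muscle transcript. Trametinib tumor 3, with 2033 CPM of muscle transcript, had 4.35 CPM of Hoxd11, 2.93 of Hoxb9 and 1.17 each of Hoxc10 and Hoxc5. Of the 10 muscle markers 0 passed in any comparison with control. The part of muscle in these values was not tested.

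Hoxc13 drives the keratin genes of the hair shaft and was near the detection limit. It had 1, 0 and 0 counts in the control tumors, 0, 0 and 0 with trametinib, 3, 0 and 7 with cediranib and 6, 7 and 12 with the combination. The combination tumors together had 25 counts, which is at least 8.30-fold higher than trametinib when 3 counts over that group are taken as its limit. By an exact two-sided permutation test p was 0.1 for combination against control and against trametinib, the smallest that 3 against 3 tumors allow. Hair shaft genes downstream of Hoxc13 (15 genes) summed to 145, 54.4 and 205 CPM in the combination tumors and 259 CPM in cediranib tumor 3, and to 0.167 to 4.34 CPM in the other 8 tumors. Cediranib tumor 3 was also the cediranib tumor with most Hoxc13. Of the 13 hair shaft genes tested, 1 (Krt34) rose in combination against control, with 0, 0 and 0.202 CPM in controls and 27.1, 11.5 and 28.1 CPM in combination tumors. Of 10 hair follicle markers 6 rose in that comparison, and of 21 epidermal markers 10 did, against 4.85% of all genes. Hoxc12, its neighbor in the cluster, had 0 to 6 counts per tumor and showed no such difference.

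**Figure D5:**
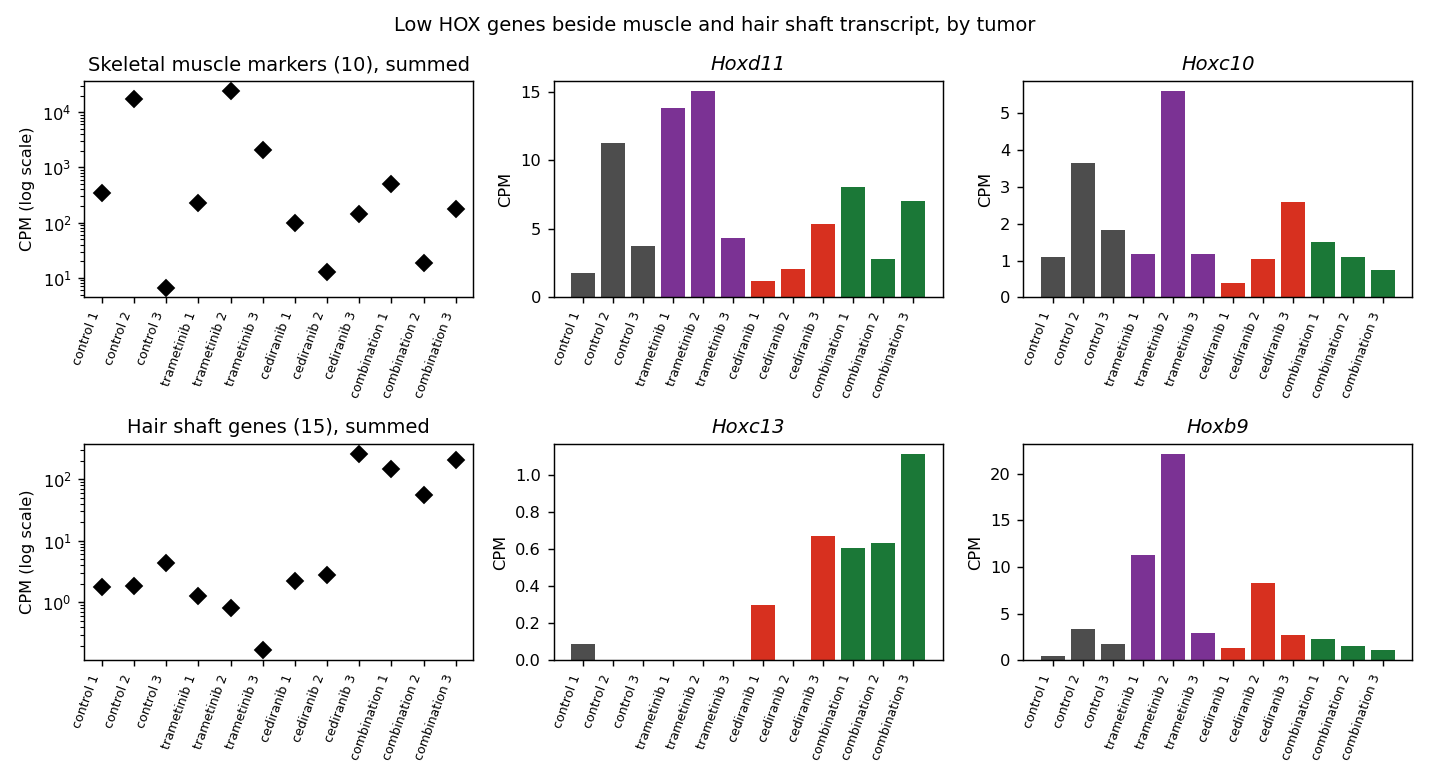
Summed CPM of skeletal muscle markers and of hair shaft genes (diamonds, log scale) beside the CPM of Hoxd11, Hoxc10, Hoxc13 and Hoxb9 (bars from 0) in each tumor, colored by treatment. Hoxc10 is highest in control tumor 2 and trametinib tumor 2, where muscle transcript is highest, and Hoxc13 is highest in the 3 combination tumors and cediranib tumor 3, where hair shaft transcript is highest.

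TALE proteins bind DNA together with HOX proteins. Of 8 TALE genes tested, 2 rose and 0 fell with trametinib against control at an edgeR FDR of 0.05, against 2.64% and 3.47% of all genes. Meis2 was at 205, 147 and 152 CPM in controls, 350, 266 and 367 with trametinib, 135, 159 and 158 with cediranib and 330, 281 and 323 with the combination. The 2 trametinib-containing groups lay above the others. Its log2 fold change was 0.96 ± 0.16 with trametinib (edgeR FDR 0.00428) and 0.89 ± 0.16 with the combination (0.00732). Pbx3 rose by 0.90 ± 0.18 with trametinib (edgeR FDR 0.0103) and 0.64 ± 0.17 with the combination (0.0386).

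Polycomb and trithorax proteins keep HOX clusters off or on, and their genes are read against 2.64% of all genes that rose and 3.47% that fell with trametinib, and 4.85% and 5.13% with the combination. Among 16 Polycomb genes tested, Phc2 fell with trametinib by 0.65 ± 0.13 on the log2 scale (edgeR FDR 0.0107) and 0 rose, and with the combination Ezh2, the H3K27 methyltransferase, rose by 0.48 ± 0.13 (0.0433) while Phc2 and Pcgf2 fell. Of 9 trithorax genes tested 0 passed with trametinib and 1 (Kmt2b) rose with the combination. None of these passed the rule with a minimum fold. The CDX genes and Gdf11, which set the HOX pattern along the embryo, had 1 member tested and 0 changes.

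Other position genes of limb, trunk and dermis were also measured. Of 10 tested, 2 (Lhx9 and Twist1) rose with trametinib at an edgeR FDR of 0.05, against 2.64% of all genes, and 1 (Lhx2) with the combination, against 4.85%. Lhx9, a gene of limb and gonad, was at 24.4, 15.1 and 10.1 CPM in controls and 66.5, 93.2 and 138 with trametinib (log2 fold change 2.58 ± 0.57, edgeR FDR 0.0199). In the combination it was at 18.9, 18.2 and 86.5 CPM, which overlapped control. Lhx2, which acts in hair follicle stem cells, was at 0.255, 0 and 0.101 CPM in controls and 1.51, 0.999 and 1.76 with the combination.

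Promoter windows of 4 genes that rose are shown because members of the same clusters moved together, and none of the 6 motifs searched stood in all 4. They are the 250 bases before the annotated start (RefSeq, GRCm38.p6) of Hoxd8 at chr2:74704365-74704614 (plus strand), Hoxd10 at chr2:74691641-74691890 (plus strand), a distal start of Hoxa10 at chr6:52240855-52241104 (minus strand) and Hoxa2 at chr6:52164832-52165081 (minus strand), 5′ to 3′ on the strand of the gene. Capitals mark matches, on either strand, to a PBX-HOX motif (TGATNNAT) or a MEIS motif (TGACAG).
Hoxd8: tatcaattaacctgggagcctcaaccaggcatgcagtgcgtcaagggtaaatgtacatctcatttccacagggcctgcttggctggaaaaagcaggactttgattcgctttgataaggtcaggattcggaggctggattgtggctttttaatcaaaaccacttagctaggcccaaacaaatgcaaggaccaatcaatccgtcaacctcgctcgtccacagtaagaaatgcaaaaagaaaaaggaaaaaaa
Hoxd10: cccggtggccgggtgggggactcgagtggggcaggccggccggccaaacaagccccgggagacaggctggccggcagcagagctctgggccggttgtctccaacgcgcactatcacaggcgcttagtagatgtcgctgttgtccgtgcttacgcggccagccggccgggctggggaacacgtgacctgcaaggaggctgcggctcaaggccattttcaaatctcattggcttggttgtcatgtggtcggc
Hoxa10: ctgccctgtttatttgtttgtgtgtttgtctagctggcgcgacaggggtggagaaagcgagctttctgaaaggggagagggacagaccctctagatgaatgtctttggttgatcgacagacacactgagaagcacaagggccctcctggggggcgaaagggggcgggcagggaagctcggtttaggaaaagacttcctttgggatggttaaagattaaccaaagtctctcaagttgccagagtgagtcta
Hoxa2: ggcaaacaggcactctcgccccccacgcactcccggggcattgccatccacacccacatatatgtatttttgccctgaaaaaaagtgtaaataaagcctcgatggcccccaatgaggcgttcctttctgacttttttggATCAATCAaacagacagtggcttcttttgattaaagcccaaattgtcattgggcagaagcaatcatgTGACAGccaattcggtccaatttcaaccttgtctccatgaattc

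The table held windows for 22 of the 39 HOX names (24 windows) among 32851 windows in all. HOX windows had a median GC content of 58.6% and a median of 12.5 CG pairs, against 52.4% and 6 over all windows. The PBX-HOX letters stood in 4 of 24 HOX windows (Hoxa2, Hoxb1, Hoxb8 and Hoxd11) and in 7.68% of all windows. The MEIS letters stood in 2 (Hoxa2 and Hoxa3) and in 15.9% of all windows. The AP-1 letters TGANTCA, a motif of MAPK-responsive factors, stood in 1 (Hoxd11) and in 6.75%, the ETS letters CCGGAAG in 0 and in 6.91%, the EGR letters GCGTGGGCG in 0 and in 0.536%, and the TATA letters TATAAA in 4 and in 12.4% of all windows. Motifs were read on both strands, and a match is only a description of these letters in this window.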

How the data were processed

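RNA sequencing counts of 12 SVR tumors, 3 per treatment, were analysed, with groups taken from titles and treatment labels. The values deposited by the authors are unnormalized counts of reads per gene, from bcl2fastq 1.8.4, STAR 2.7.1a (GRCm38) and featureCounts 1.6.0. Exome capture makes a count depend on probes as well as transcripts. Annotation release, strand setting and handling of overlaps were not given in the sources used here.

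Counts were TMM-normalized (factors 0.908 to 1.10) and fitted with edgeR 4.0.16 quasi-likelihood in R 4.3.3, with all 12 tumors in 1 fit. Of 29102 genes with a count, 12897 passed filterByExpr (minimum count 10, total 15). FDRs are Benjamini-Hochberg adjusted over all 12897 genes. A called gene had an FDR under 0.05 and a log2 fold change of 1.5 or more in size. Standard errors were derived from the log2 fold change and its F statistic. The script was tested on simulated data. CPM is given on the TMM scale, and CPM per kb used the lengths in the deposited table. The labels do not give the mouse of each tumor, so p-values measure the spread between these tumors.

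Values by tumor are given for members called in a comparison, the highest member of each cluster and Hoxc13, and for further genes past an FDR of 0.05 whose values were seen first. Members and gene lists were chosen with earlier results of these data known. For the TALE list 1 result is not reported here. Homeobox bases came from GENCODE M21 transcripts and promoters from RefSeq (GRCm38.p6). Alternatives were other normalizations, no filter, other tests (the edgeR likelihood ratio test and DESeq2 1.42.0), other samples or covariates in the fit, and each tumor left out.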

Additional observations from a re-analysis of the deposited data

How the results depend on the processing

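Numbers of called HOX genes, by FDR and minimum fold, moved as follows. For trametinib against control 1 gene was called, 7 with no minimum fold, 2 with only the groups compared in the fit and 3 each with no filter, the likelihood ratio test, DESeq2 and the replicate block, and leaving out 1 tumor gave 1 to 2. For combination against control 0 were called, 6 with no minimum fold, 2 with library totals alone and 1 with no filter, and leaving out 1 tumor gave 0 to 1. For combination against trametinib 0 were called, 2 with no filter and 1 each with the likelihood ratio test and DESeq2. For combination against cediranib 2 were called, 9 with no minimum fold and 1 without the 2 muscle-rich tumors, and leaving out 1 tumor gave 1 to 3. For the interaction 0 were called and 1 with no filter. For tumors with against without trametinib 2 were called, 13 with no minimum fold and 1 without the 2 muscle-rich tumors, and leaving out 1 tumor gave 0 to 3, with 0 without control tumor 2 or combination tumor 3. The causes were not tested. By FDR alone, no filter gave 12 genes for trametinib and 11 for combination against control, and the likelihood ratio test and DESeq2 gave 11 each for trametinib. Hoxc13 passed without the filter in combination against control (edgeR FDR 0.0149) and in combination against trametinib (edgeR FDR 0.00301).

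No HOX gene that passed the FDR threshold changed direction under any alternative run. Of 35 such results, all 35 stayed past the FDR threshold with RLE factors, library totals, the likelihood ratio test and DESeq2, 33 with no filter, 22 with the epidermal score as a covariate and 21 without the 2 muscle-rich tumors (the last chosen after seeing the data). Library totals alone moved the median of all genes by 0.13 for combination against control. Same-numbered tumors did not deviate together (r of -0.22 to 0.36, with 3 of 18 pairs over 0.1), so numbers were not taken as pairs. With the replicate block 34 of the 35 results stayed past the threshold. Depth limits the 8 untested genes.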
